A study of Arabidopsis thaliana with 10 samples.

Results

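The interval from 0.5 to 3.5 hours after pollination (HAP) in Arabidopsis thaliana pistils was described by setting the 2 arrays of pistils at 3.5 HAP against the 2 arrays of pistils at 0.5 HAP, 4 of the 10 arrays in the series. All 22745 probe sets that had values and were not controls were tested. Plants of the ecotype Columbia, with no mutation or transgene named, supplied every group. Flowers were emasculated 24 hours before pollination, and each pistil replicate was a separate pool of 20 pistils from at least 10 plants. Replicate error is therefore the difference between 2 such pools, and 2 arrays a group limit the precision. The pistils of both times had been pollinated and were frozen with their pollen and pollen tubes. The pollen parent is not given in the labels. Arrays of 8 HAP pistils, of unpollinated pistils and of unfertilised ovules cut from unpollinated pistils, 2 of each, gave levels outside the interval.

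After a pollen grain lands on the stigma it takes up water, germinates and pushes out a tube, which grows through the style and the transmitting tract towards the ovules. A tube carries its own transcripts and secretes enzymes that loosen pectin, while the pistil supplies nutrients and signals and answers the contact with calcium, hormone and defence responses. Between these times the tubes of a compatible pollination leave the stigma surface and run through the pistil. Whole pistils were measured, so more cells of a type and more RNA per cell cannot be told apart, nor can pollen RNA and pistil RNA.

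Signals are linear intensities as deposited, tested as log2(intensity + 16) with limma across all 5 groups, and a call is an adjusted p under 0.05 over all 22745 probe sets. Folds are on that scale, which understates the change of dim genes. Means up to 136.5, the 95th percentile of 27 bacterial control probe sets, are called background level, and the size of a fold with 1 mean there depends on that background. Array medians were 257.1 and 257 at 3.5 HAP, against 267.3 and 266 at 0.5 HAP, and replicates correlated across probe sets at r = 0.996 and 0.9972. Signal at the actin transcript's 3' end relative to its 5' end, a sign of RNA quality, was (on the log2 scale) 2.15 and 1.93 at 3.5 HAP, against 2.25 and 2.20 at 0.5 HAP. Gene names were available for 13512 of the tested probe sets and 13354 genes, so most gene lists were covered only in part. The labelled organ was checked against 8 genes of stigma, style and transmitting tract and 2 of carpel and ovule. In these, ARPN, a plantacyanin of the transmitting tract, gave 5509 and 4852 at 3.5 HAP, against 5003 and 4950.4 at 0.5 HAP, and INO, an ovule integument gene, gave 445 and 474 at 3.5 HAP, against 501 and 472 at 0.5 HAP. Both were above background level on all 4 arrays. The 18 probe sets of the hybridisation spikes, RNA added in fixed amounts before hybridisation, were all higher on both 3.5 HAP arrays than on both 0.5 HAP arrays (median log2 difference 0.66, between 0.30 and 0.89), while the 27 bacterial controls had a median of -0.04. The part of this offset in the results was not tested. Of the 1181 probe sets called higher in the interval 328 exceeded the spikes' median.

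In all, 3228 probe sets (14.2%) passed the test, 1181 higher at 3.5 HAP (5.19%) and 2047 lower (9%), so rises made up 36.6% of the calls. That share was 48.2% after quantile normalization (1585 higher and 1704 lower) and 46.6% with arrays centred on 6 reference genes (1068 higher and 1225 lower). Changes of at least 2-fold numbered 123 rises (0.541%) and 103 falls (0.453%). Among the 13354 named genes 600 were higher (4.49%) and 1208 lower (9.05%), and the median log2 difference was -0.04; the counts of each list below stand against these shares. At least 2-fold changes covered 66 named rises (0.494%) and 63 named falls (0.472%). In all 129 of them the arrays of the 2 times did not overlap. The same held for 8460 of all 13354 named genes, called or not, so lack of overlap adds little to a call. Of the 66 rises 25 had a 0.5 HAP mean within background level, 6 of these at both times. Of the 63 falls 11 had a 3.5 HAP mean within it, 2 of these at both times. A further 57 rises and 40 falls of this size were in probe sets that name no single gene or are not the brightest of their gene.

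**Figure D1:**
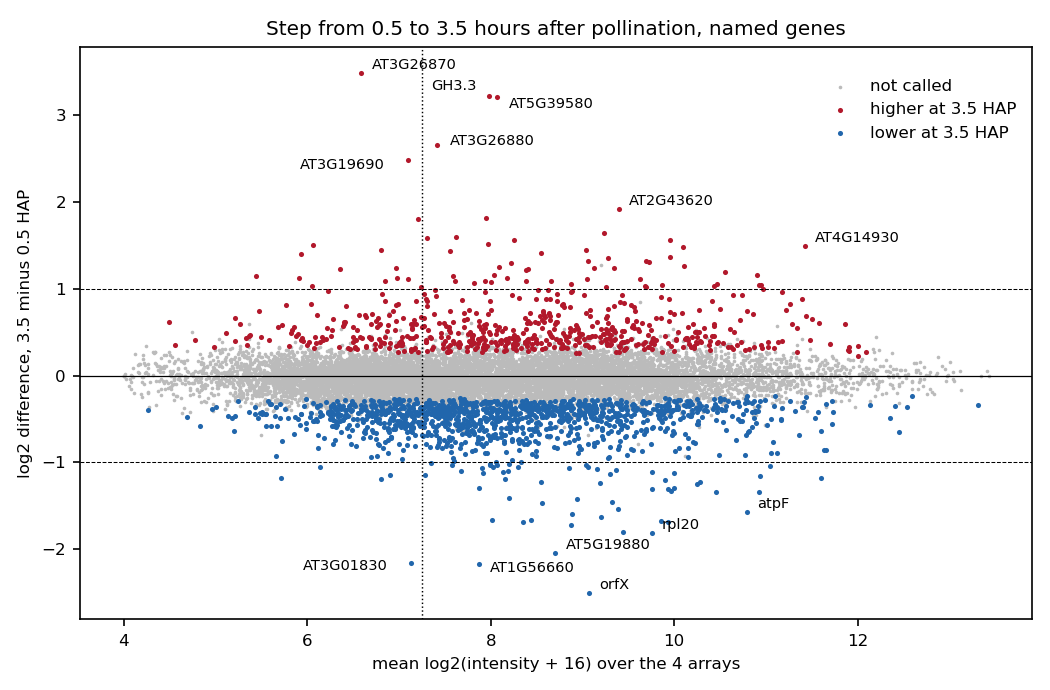
Log2 difference (3.5 HAP minus 0.5 HAP) of each of 13354 named genes against its mean log2(intensity + 16) over the 4 arrays. Red points are the 600 genes called higher at 3.5 HAP, blue points the 1208 called lower and grey points the rest. Dashed lines mark 2-fold, and the dotted line marks the background level. The largest rises exceeded 3 on the log2 scale, and most calls of either colour lay within 2-fold.

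The largest rise belonged to a trio of neighbouring genes on chromosome 3, AT3G26860, AT3G26870 and AT3G26880, with no other protein-coding gene between them in the gene table. They encode small secreted proteins of the self-incompatibility S1 family, named after a stigma protein of poppy that arrests self pollen tubes. AT3G26870 gave 346 and 271 at 3.5 HAP, against 12 and 13.6 at 0.5 HAP. Both 0.5 HAP arrays were far inside background level and both 3.5 HAP arrays above it (11.2-fold, log2 difference 3.49, SE 0.127, adjusted p = 8.48e-08). AT3G26880 gave 468 and 363 at 3.5 HAP, against 59.5 and 45.6 at 0.5 HAP (6.28-fold, adjusted p = 3.8e-06). AT3G26860 gave 399 and 418 at 3.5 HAP, against 138 and 127 at 0.5 HAP (2.86-fold, adjusted p = 5.46e-06). The groups overlapped in neither gene, and both 0.5 HAP means were within background level. The unpollinated means of all 3 were within background level, at 16.1 for AT3G26860, 11.3 for AT3G26870 and 31.3 for AT3G26880. At 8 HAP AT3G26860 averaged 231, below both 3.5 HAP arrays, while AT3G26870 averaged 366 and AT3G26880 582. Of 12 measured genes of the family 4 rose and 0 fell by limma, the same numbers as at an unadjusted p under 0.05, with a median log2 difference of 0.11 against -0.04 over all named genes. The other gene called was AT5G26060, within background level at both times (log2 difference 0.56, adjusted p = 0.00128). The count of 4 was the same under quantile normalization, centring and the loss of any one of the 4 arrays. The ovule-rich members AT2G06090 (ovule mean 1914) and AT1G04645 (ovule mean 4935) had log2 differences of -0.07 and 0.16 and were not called.

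GH3.3, an enzyme that joins auxin to amino acids and so lowers free auxin, gave 839.5 and 679.9 at 3.5 HAP, against 60.1 and 74.1 at 0.5 HAP. The groups were far apart, with the 0.5 HAP arrays within background level (9.32-fold, log2 difference 3.22, SE 0.183, adjusted p = 2.11e-06). It averaged 1012 at 8 HAP and 30.9 in unpollinated pistils. IAGLU, a glucosyltransferase that links auxin to glucose, gave 1541 and 1612 at 3.5 HAP, against 633 and 572 at 0.5 HAP (2.58-fold, adjusted p = 9.79e-06). GH3.17, another enzyme of auxin conjugation, gave 1097 and 1120.1 at 3.5 HAP, against 907 and 843 at 0.5 HAP (adjusted p = 0.0213), a call lost without any one of the 4 arrays (adjusted p up to 0.17). Of 6 measured genes for auxin conjugation 3 rose and 0 fell, at an unadjusted p too, with a median log2 difference of 0.36. WES1, another GH3 enzyme, had a log2 difference of 0.38 (adjusted p = 0.223), and GH3.1 and GH3.9 lay within background level without a call. Among 11 other measured auxin genes only YUC11, an auxin synthesis enzyme within background level, rose (log2 difference 0.61, adjusted p = 0.0263), and IAA18, an auxin response repressor, fell (log2 difference -0.43, adjusted p = 0.0422). YUC11 missed the threshold without either 0.5 HAP array or 3.5 HAP replicate 1. IAA18 missed it after quantile normalization, after centring, with the replicate block and without any one of the 4 arrays.

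Secreted defence-type proteins made up another block of rises. AT3G19690, of the pathogenesis-related 1 family, gave 335 and 284 at 3.5 HAP, against 40.8 and 43.4 at 0.5 HAP (5.59-fold, log2 difference 2.48, SE 0.101, adjusted p = 1.26e-07). The 0.5 HAP arrays and the unpollinated mean of 41.5 were within background level, and it averaged 877 at 8 HAP. AT2G43620, a chitinase, which cuts the fungal wall polymer chitin, gave 1284 and 1300 at 3.5 HAP, against 317 and 343 at 0.5 HAP. All 4 arrays were above background level, and the groups did not overlap (3.78-fold, adjusted p = 1.2e-06). It belongs to a run of 6 adjacent chitinase genes on chromosome 2, all measured. In this run CHI (AT2G43570) gave 274 and 316 at 3.5 HAP, against 98.8 and 98.7 at 0.5 HAP (2.7-fold, adjusted p = 4.54e-06), with the 0.5 HAP arrays within background level. AT2G43610 gave 668 and 616 at 3.5 HAP, against 322 and 321 at 0.5 HAP (1.95-fold, adjusted p = 0.00019), and AT2G43590 rose by 0.72 on the log2 scale (adjusted p = 0.00175). The remaining pair of the run, AT2G43580 and AT2G43600, had means within background level and log2 differences of -0.27 and 0.06, without a call. All 4 risen genes of the run had 8 HAP means above their 3.5 HAP means, from 601 for AT2G43590 to 1943 for AT2G43620. ChiC, a chitinase on chromosome 4, also rose (1.59-fold, adjusted p = 0.00201), to 1157 at 3.5 HAP against 722 at 0.5 HAP, with 522 at 8 HAP. In all 11 of 29 measured genes of the PR1 family and chitinases rose and 0 fell by limma, against 13 and 4 at an unadjusted p under 0.05, with a median log2 difference of 0.12. The rises numbered 7 to 9 without any one of the 4 arrays, 7 of them without 0.5 HAP replicate 1 or 3.5 HAP replicate 2. By contrast 0 of 18 measured genes listed as defensins, thionins and related small cysteine-rich peptides were called in either direction. At an unadjusted p 0 were higher and 3 lower, and the median was 0.01. The list also holds PDF1A and PDF1B, which are peptide deformylases, and THIC, an enzyme of thiamine synthesis. These are not such peptides, so the median and the unadjusted counts cover a mixed list.

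**Figure D2:**
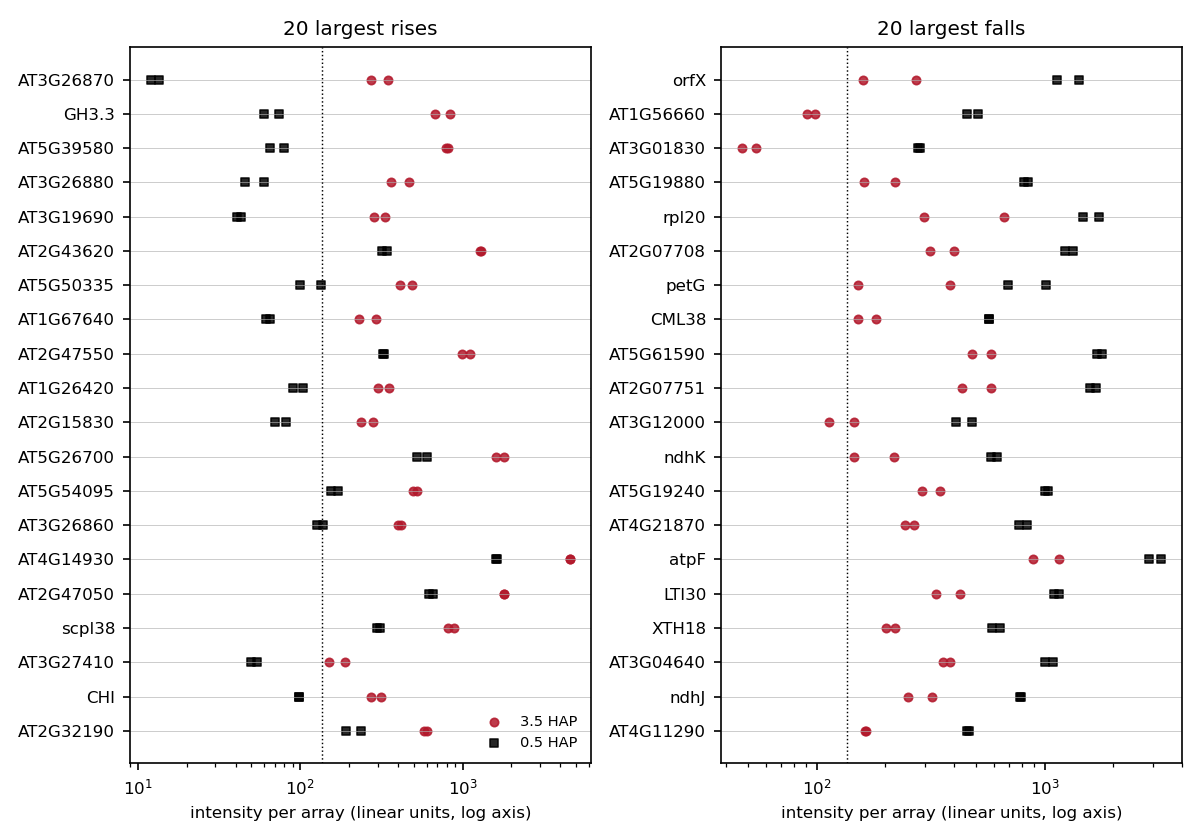
Intensity on each of the 2 arrays at 3.5 HAP (red circles) and the 2 arrays at 0.5 HAP (black squares) for the 20 largest rises (left) and 20 largest falls (right) among named genes, on log axes. The dotted line marks the background level of 136.5. Genes were drawn only if the 2 times did not overlap. The 3.5 HAP arrays of orfX, rpl20 and petG were spread most widely.

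Class III peroxidases, secreted enzymes that use hydrogen peroxide to stiffen or loosen walls, moved in both directions. AT5G39580 gave 809 and 786 at 3.5 HAP, against 65.5 and 79.4 at 0.5 HAP, with the 0.5 HAP arrays within background level (9.22-fold, log2 difference 3.20, SE 0.102, adjusted p = 3.88e-08). It averaged 66.5 in unpollinated pistils and 378 at 8 HAP, so 3.5 HAP gave its highest mean. AT5G47000 gave 1063 and 1268 at 3.5 HAP, against 564 and 566 at 0.5 HAP (2.03-fold, adjusted p = 0.000604), and AT5G64120 gave 1761 and 2196 at 3.5 HAP, against 953 and 947 at 0.5 HAP (2.05-fold, adjusted p = 0.00818). In the opposite direction AT5G19880 gave 222 and 161 at 3.5 HAP, against 847 and 815 at 0.5 HAP (4.12-fold lower, log2 difference -2.04, adjusted p = 8.42e-05). AT4G11290 gave 165 and 163 at 3.5 HAP, against 457 and 467 at 0.5 HAP (log2 difference -1.41, adjusted p = 3.8e-06), and AT3G03670 gave 191 and 143 at 3.5 HAP, against 339 and 383 at 0.5 HAP (log2 difference -1.05, adjusted p = 0.00148). In each of them both 3.5 HAP arrays lay below both 0.5 HAP arrays. These 3 falling genes had lower means still at 8 HAP, between 79.2 for AT3G03670 and 157 for AT5G19880, and ovules held at most 104. Of 55 measured peroxidases 10 rose and 7 fell. The median log2 difference was -0.02, or 0.02 after quantile normalization and 0.01 after centring. Without any one of the 4 arrays 4 to 6 rose and 3 or 4 fell, the fewest without 0.5 HAP replicate 1.

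Enzymes that act on pectin, the polymer that glues plant cell walls, rose more often than they fell. Pectinesterases strip methyl groups from pectin, polygalacturonases and pectate lyases cut its backbone, and inhibitor proteins bind pectinesterases or invertases. Of 44 measured pectinesterases 8 rose and 3 fell, with a median log2 difference of 0.02. Of 63 polygalacturonases and pectate lyases 14 rose and 1 fell (median 0.05), and of 29 inhibitors 10 rose and 3 fell (median 0.09). These medians kept their sign under both other scalings. Both also raised the median over all named genes, to -0.002 (quantile normalization) and -0.008 (centring), so a kept positive sign says little. Without any one of the 4 arrays fewer genes of each family rose and fewer fell, as over all named genes. The medians were then 0.01 to 0.03 for pectinesterases, 0.04 to 0.09 for polygalacturonases and pectate lyases and 0.10 to 0.15 for inhibitors.

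AT2G47550, a pectinesterase, gave 1111 and 991 at 3.5 HAP, against 325 and 326 at 0.5 HAP (3.12-fold, adjusted p = 4.8e-06). Both 3.5 HAP arrays were far above both 0.5 HAP arrays, and the means were 243 in unpollinated pistils and 332 at 8 HAP. AT3G05610, another pectinesterase, gave 806 and 880.2 at 3.5 HAP, against 351 and 343 at 0.5 HAP (2.37-fold, adjusted p = 7.37e-06) and went on to a mean of 1216 at 8 HAP, where unpollinated pistils averaged 67.9. The inhibitor family genes AT2G47050 and AT5G50030 were likewise higher on both 3.5 HAP arrays. AT2G47050 gave 1807 and 1807 at 3.5 HAP, against 662 and 618 at 0.5 HAP (2.78-fold, adjusted p = 0.000106), and AT5G50030 gave 1245 and 1337 at 3.5 HAP, against 494 and 525 at 0.5 HAP (2.49-fold, adjusted p = 0.000106). The pectate lyase AT3G01270 gave 2640.2 and 2889.6 at 3.5 HAP, against 1376 and 1294 at 0.5 HAP (2.06-fold, adjusted p = 0.000864), where unpollinated pistils averaged 151. The groups did not overlap for any of these genes. The polygalacturonase AT3G07820 gave 2681 and 2964 at 3.5 HAP, against 1393 and 1407 at 0.5 HAP (adjusted p = 0.0213). AT2G40310, a polygalacturonase-like gene, had a larger log2 difference of 1.40, but both of its means lay within background level.

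Among the 63 backbone-cutting enzymes only AT3G06770 fell (log2 difference -0.31, adjusted p = 0.0366), and it lost the call after quantile normalization, after centring and without any one of the 4 arrays. ADPG1, a polygalacturonase of organ separation, rose (log2 difference 0.41, adjusted p = 0.0293) but stayed below its unpollinated mean of 832. The 8 HAP arrays and the unpollinated arrays share no array with the interval, so they show where these genes stood outside it. At 8 HAP against unpollinated pistils, where 17.4% of named genes were higher and 18.6% lower, 9 of the 14 risen backbone-cutting enzymes were higher and 3 lower. Of the 8 risen pectinesterases 6 were higher there, and of the 10 risen inhibitors 3 were higher and 3 lower.

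The pollen and pollen tube markers were measured for 8 of 42 listed genes. ANX2, a receptor kinase that keeps the tube from bursting early, gave 325 and 362 at 3.5 HAP, against 154 and 150.4 at 0.5 HAP (2.13-fold, adjusted p = 0.000262). AT5G45840, a tube receptor kinase known as MDIS1, gave 149 and 152 at 3.5 HAP, against 78.3 and 79.2 at 0.5 HAP (adjusted p = 0.000117), and AT4G39110, the tube receptor kinase BUPS1, gave 147 and 163 at 3.5 HAP, against 100.2 and 100.2 at 0.5 HAP (adjusted p = 0.00822). The 0.5 HAP means of AT5G45840 and AT4G39110 were within background level. ANX1 rose by 0.56 on the log2 scale within background level. So 4 of 8 rose and 0 fell by limma, against 5 and 0 at an unadjusted p, with all 8 differences above zero and a median of 0.43. SWEET8, a sugar transporter, and TUA1, a tubulin, were not called, with log2 differences of 0.01 and 0.22. AT4G39110 missed the threshold without either 0.5 HAP array or 3.5 HAP replicate 2. Summed over the 8 genes the level was 2025 and 2261 at 3.5 HAP, against 1673 and 1594 at 0.5 HAP, and it was 1127 and 1068 in unpollinated pistils and 2478 and 2515 at 8 HAP. Ovules cut from unpollinated pistils gave 1389 and 1679, so the sum is not a measure of pollen RNA alone. None of the 8 was listed at 0 on any array. The part of pollen RNA in the rises of pectin enzymes, peroxidases and other genes was not tested. MGH3, a histone of sperm cells and the only one of 7 sperm genes measured, lay within background level (log2 difference 0.35, adjusted p = 0.0592).

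**Figure D3:**
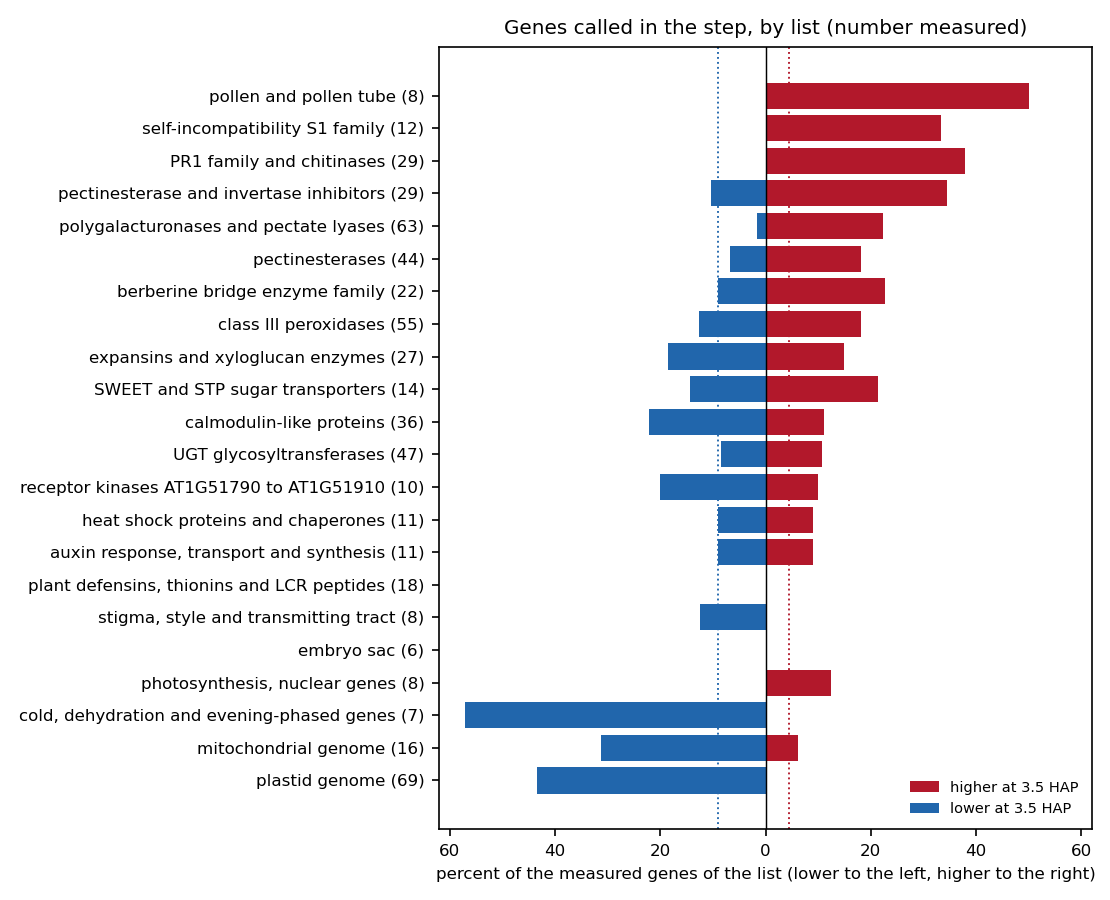
Percent of the measured genes of each list called higher at 3.5 HAP (red, to the right) or lower (blue, to the left), with the number measured in brackets. Dotted lines give the shares over all named genes, 4.49% higher and 9.05% lower. The pollen, S1, PR1 and chitinase lists had rises only, the cold and plastid lists falls only, and peroxidases went both ways.

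Few markers of other cell types passed the test. Of 6 embryo sac genes 0 were called in either direction, and 1 was higher at an unadjusted p (EC1.2, an egg cell gene, log2 difference 0.41, adjusted p = 0.0517). Of the 2 carpel and ovule genes neither was called, and BAN, a seed coat flavonoid enzyme, was higher at an unadjusted p (log2 difference 0.32, adjusted p = 0.145). Of 3 genes of tapetum, pollen coat and petal AT5G07230 fell within background level (log2 difference -0.44, adjusted p = 0.0221), and lost the call after centring and without 0.5 HAP replicate 1 or 3.5 HAP replicate 2. Of the 8 genes of stigma, style and transmitting tract only AT3G12000 passed. This S-locus related gene gave 147 and 113 at 3.5 HAP, against 481 and 409.9 at 0.5 HAP (log2 difference -1.67, adjusted p = 0.0009). Both arrays at 3.5 HAP, with a mean within background level, were far below both at 0.5 HAP, and the mean was 18.8 at 8 HAP and 150.2 in unpollinated pistils. CES, a transcription factor of the transmitting tract, had a log2 difference of -0.15 (adjusted p = 0.371), and ARPN one of 0.05 (adjusted p = 0.823).

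The falls held several genes of calcium and stress signalling that were high at 0.5 HAP. AT3G01830, a calmodulin-like calcium sensor, gave 47 and 54 at 3.5 HAP, against 283 and 279.9 at 0.5 HAP. Its 3.5 HAP arrays were within background level and the groups far apart (4.48-fold lower, log2 difference -2.16, SE 0.135, adjusted p = 3.8e-06). CML38, a wound-induced calcium sensor, gave 152 and 181 at 3.5 HAP, against 571 and 573 at 0.5 HAP (3.23-fold lower, adjusted p = 2.89e-05). In both genes the 0.5 HAP arrays were nearly equal and far above the 3.5 HAP arrays. CML37, its close relative, gave 76.8 and 86.7 at 3.5 HAP, against 161 and 144 at 0.5 HAP (log2 difference -0.79, adjusted p = 0.00588). The 3.5 HAP mean of CML37 was within background level, and so were the unpollinated means, at 31.8 for AT3G01830, 106 for CML38 and 38.6 for CML37. Of 36 measured calmodulin-like genes 8 fell and 4 rose, with a median log2 difference of -0.09; after centring 4 fell and 4 rose. Without any one of the 4 arrays 3 to 6 fell, the fewest without 0.5 HAP replicate 1 or 3.5 HAP replicate 1. The rises were led in level by AT2G41410 (3697 and 3565 at 3.5 HAP, against 2354 and 2253 at 0.5 HAP, adjusted p = 0.0022).

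AT5G61590, an ERF transcription factor known as DEWAX that represses wax synthesis, gave 479 and 585 at 3.5 HAP, against 1696 and 1778 at 0.5 HAP (3.21-fold lower, adjusted p = 5.74e-05). Its unpollinated mean was 587. OPCL1, a ligase of jasmonate synthesis, gave 544 and 529.6 at 3.5 HAP, against 1198 and 1516 at 0.5 HAP (2.47-fold lower, adjusted p = 0.000477), and JMT, which methylates jasmonate, had a log2 difference of -0.31 (adjusted p = 0.237). WRKY53, a transcription factor of senescence and defence, went the other way, with 435 and 418 at 3.5 HAP, against 233 and 274 at 0.5 HAP (1.65-fold, adjusted p = 0.000783). WRKY6 and WRKY47 rose too, by log2 differences of 0.40 and 0.59, the second within background level, so 3 of 6 measured WRKY genes rose and 0 fell, against 3 and 1 at an unadjusted p. Only WRKY53 was called without 0.5 HAP replicate 1 or 3.5 HAP replicate 1, and WRKY6 missed the threshold without any one of the 4 arrays. Of 4 measured touch and wound genes 2 rose, both of them among these WRKY genes, and 0 fell, against 2 and 2 at an unadjusted p.

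LTI30, a dehydrin that protects membranes in cold and drought, gave 334 and 425 at 3.5 HAP, against 1099.8 and 1151 at 0.5 HAP (2.91-fold lower, adjusted p = 0.00019). The 3.5 HAP arrays lay between the 0.5 HAP arrays and the unpollinated mean of 43.4. AT4G33980, a cold-regulated gene that peaks in the evening, gave 409 and 325 at 3.5 HAP, against 889 and 880 at 0.5 HAP (log2 difference -1.24, adjusted p = 0.000112). COR47, another dehydrin, gave 2016 and 2101 at 3.5 HAP, against 3379.6 and 3259.9 at 0.5 HAP (log2 difference -0.69, adjusted p = 0.00206). In the list of cold, dehydration and evening-phased genes 4 of 7 fell and 0 rose, against 6 and 0 at an unadjusted p, and all 7 differences were below zero (median -0.39). The fourth, COR27, was lost after quantile normalization, after centring and without any one of the 4 arrays. GI, a clock gene, had a log2 difference of -0.18 (adjusted p = 0.161). The clock time at which pistils were frozen is not in the labels, so time of day and time after pollination cannot be told apart.

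**Figure D4:**
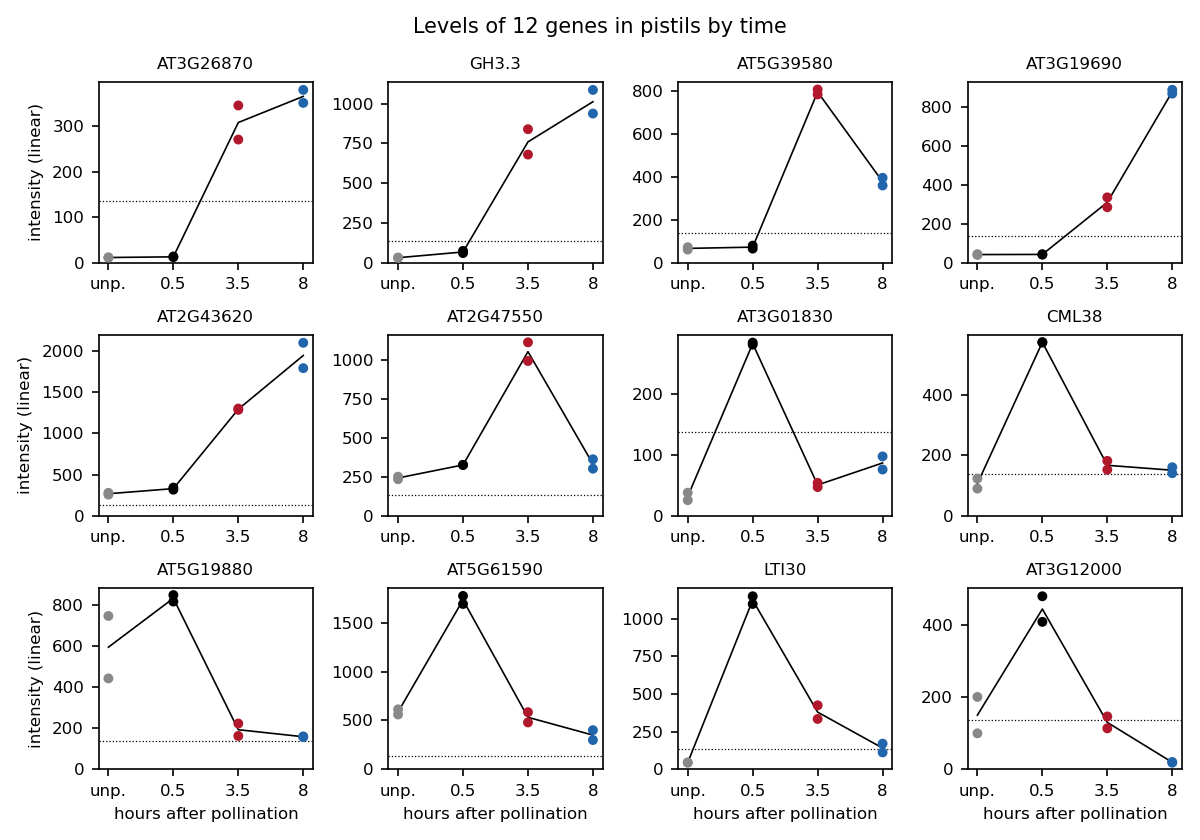
Intensity (linear, axes from 0) of 12 genes on each array of unpollinated pistils and pistils at 0.5, 3.5 and 8 HAP. Points are the 2 arrays, lines join the group means and the dotted line is the background level. The rising genes divide into those still higher at 8 HAP, such as AT3G19690 and GH3.3, and those with their highest mean at 3.5 HAP, such as AT5G39580 and AT2G47550, and the falling genes have their highest mean at 0.5 HAP.

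Growth enzymes of the wall moved both ways. EXPA8, an expansin that loosens walls, gave 534 and 479 at 3.5 HAP, against 199 and 213 at 0.5 HAP (2.35-fold, adjusted p = 2.97e-05), and EXPB5 and EXLA3 rose by 0.94 and 0.86 on the log2 scale. XTH18, which cuts and rejoins xyloglucan chains, gave 220.2 and 202 at 3.5 HAP, against 589 and 639.9 at 0.5 HAP (2.78-fold lower, adjusted p = 2.42e-05). XTH19, its neighbour on chromosome 4 with no protein-coding gene between, had a smaller log2 difference of -0.44 (adjusted p = 0.00711) and missed the threshold without either 0.5 HAP array or 3.5 HAP replicate 2; signal of close relatives can cross on such probe sets. Of 27 measured expansins and xyloglucan enzymes 4 rose and 5 fell, with a median log2 difference of -0.02, or 0.02 after quantile normalization and 0.01 after centring. Without 0.5 HAP replicate 1 3 rose and 2 fell.

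Enzymes that finish anthocyanins, the purple pigments of plants, were higher at 3.5 HAP in the 3 cases that passed. UF3GT, which adds xylose to anthocyanins, gave 933 and 1031 at 3.5 HAP, against 421 and 395 at 0.5 HAP (2.35-fold, adjusted p = 2.53e-05). AT5MAT, a malonyltransferase of the same pathway, gave 195 and 202 at 3.5 HAP, against 101 and 91.3 at 0.5 HAP (1.92-fold, adjusted p = 0.000326), and AT4G14090, an anthocyanin glucosyltransferase, rose by 0.53 on the log2 scale (adjusted p = 0.00537). The 0.5 HAP means of both were within background level. At 8 HAP the means of UF3GT, AT5MAT and AT4G14090 were 3608, 1077 and 1630.2 in that order. So 3 of 4 measured genes rose and 0 fell, against 4 and 0 at an unadjusted p, with a median log2 difference of 0.73. AT4G14090 missed the threshold without 0.5 HAP replicate 2.

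SWEET9, the sugar exporter of nectaries, gave 94.2 and 188 at 3.5 HAP, against 349 and 352 at 0.5 HAP (2.45-fold lower, adjusted p = 0.0022). Its 2 arrays at 3.5 HAP differed from each other, both below the 0.5 HAP arrays. SWEET3 also fell, and SWEET2, SWEET11 and SWEET13 rose by 0.43 to 0.58 on the log2 scale. So 3 of 14 measured genes of the SWEET and STP sugar transporter list rose and 2 fell (median 0.02). All 14 are SWEET genes, and no STP gene was measured under a name. Without either 0.5 HAP array or 3.5 HAP replicate 2 only SWEET9 was called, and SWEET3 also missed the threshold after centring. Of 47 UGT glycosyltransferases 5 rose and 4 fell (median 0.04), led by UGT76E12 with 568 and 569.8 at 3.5 HAP, against 276 and 301 at 0.5 HAP (1.92-fold, adjusted p = 0.000453). After quantile normalization 10 UGT genes rose, and without any one of the 4 arrays 3 or 4 rose and 0 or 1 fell. Of 22 berberine bridge oxidoreductases 5 rose and 2 fell (median 0.04), or 3 to 5 and 0 or 1 without any one of the 4 arrays. AT1G26420 led them with 352 and 303 at 3.5 HAP, against 104 and 90.9 at 0.5 HAP (3.02-fold, adjusted p = 0.00019), with the 0.5 HAP arrays within background level. Its neighbour by number, AT1G26410, fell within background level (log2 difference -0.49, adjusted p = 0.0369).

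In a run of receptor kinase genes on chromosome 1, 10 of 13 were measured, 1 rose and 2 fell (median -0.05). AT1G51805 gave 423 and 396 at 3.5 HAP, against 907 and 924 at 0.5 HAP (log2 difference -1.13, adjusted p = 2.4e-05). AT1G51820 gave 55.3 and 60.8 at 3.5 HAP, against 143 and 163 at 0.5 HAP (log2 difference -1.19, adjusted p = 4.26e-05), with the 3.5 HAP arrays within background level, while AT1G51850 rose within background level, with 76.4 and 68.7 at 3.5 HAP, against 25.1 and 24.1 at 0.5 HAP (log2 difference 1.12, adjusted p = 2.75e-05). Members of this run are close relatives, and signal shared between them could not be separated. Of 11 chaperones AT4G21870, a small heat shock type protein, fell (245 and 267 at 3.5 HAP, against 838 and 773 at 0.5 HAP, adjusted p = 4.55e-05), and AT3G09440, an HSP70, rose (log2 difference 0.51, adjusted p = 0.00709), a call lost without 0.5 HAP replicate 2 or 3.5 HAP replicate 2. Of 4 measured ethylene and gibberellin genes (EIN3, GID1A, GID1B and GID1C) 0 were called, against 1 higher and 1 lower at an unadjusted p. No abscisic acid gene of that list was measured under a name. Of 8 nuclear photosynthesis genes LHCB4.3 alone rose (log2 difference 0.28, adjusted p = 0.0345), a call lost after centring, with the replicate block, without the trend and without any one of the 4 arrays.

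The remaining large rises were in genes of varied roles. AT4G14930, of the SurE phosphatase family, gave 4571 and 4596 at 3.5 HAP, against 1616 and 1627 at 0.5 HAP (2.81-fold, adjusted p = 8.11e-06), the brightest of the 20 largest. AT5G26700, of the cupin superfamily, gave 1605 and 1794 at 3.5 HAP, against 524 and 603 at 0.5 HAP (2.96-fold, adjusted p = 5.32e-05), and scpl38, a serine carboxypeptidase-like protein, gave 819 and 889 at 3.5 HAP, against 298 and 309 at 0.5 HAP (2.72-fold, adjusted p = 3.49e-06). Both were within background level in unpollinated pistils, at 87 for AT5G26700 and 58.8 for scpl38. AT1G67640, an amino acid transporter, rose 3.49-fold and averaged 569.6 at 8 HAP. AT5G50335, AT2G15830, AT5G54095, AT3G27410 and AT2G32190 rose between 2.66-fold (AT2G32190) and 3.53-fold (AT5G50335). The 0.5 HAP means of AT1G67640, AT5G50335, AT2G15830 and AT3G27410 were within background level. Among the falls AT1G56660 gave 98.6 and 91.2 at 3.5 HAP, against 509 and 457 at 0.5 HAP (4.5-fold lower, adjusted p = 1.48e-06), with the 3.5 HAP arrays within background level. AT5G19240 and AT3G04640 fell by log2 differences of -1.63 and -1.46. All 20 of these largest rises were called under each of the 16 alternatives in which they were tested, and 19 of the 20 largest falls; petG was not called without 0.5 HAP replicate 1, where its adjusted p = 0.0886.

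Genes encoded in the organelles formed a separate block of falls. Of 69 measured plastid genes 30 were lower and 0 higher by limma, against 38 lower and 2 higher at an unadjusted p, with a median log2 difference of -0.38. They came from every complex, with 4 of 10 genes of the NADH dehydrogenase-like complex, 3 of 5 of photosystem I, 5 of 15 of photosystem II, 3 of 6 of ATP synthase, 1 of 6 of the cytochrome b6f complex, 2 of 4 of the plastid RNA polymerase, 4 of 7 of the large and 3 of 8 of the small ribosomal subunit, and 5 of 8 others, rbcL among them, the large subunit of Rubisco. rpl20, a ribosomal protein, gave 295 and 663 at 3.5 HAP, against 1741 and 1481 at 0.5 HAP (3.53-fold lower, adjusted p = 0.00266). petG, of the cytochrome b6f complex, gave 152 and 385 at 3.5 HAP, against 1017 and 689 at 0.5 HAP (adjusted p = 0.00715), and atpF, of ATP synthase, gave 887 and 1159.6 at 3.5 HAP, against 2861 and 3241 at 0.5 HAP (adjusted p = 0.000142). ndhK and ndhJ, of the NADH dehydrogenase-like complex, had log2 differences of -1.66 and -1.42. The 3.5 HAP arrays were all below the 0.5 HAP arrays in these genes, but they differed from each other. In 29 of the 30 genes replicate 1 was below replicate 2 at 3.5 HAP, with a median log2 gap of 0.40 between the 3.5 HAP replicates and 0.08 between the 0.5 HAP replicates. Over all 69 genes the median log2 level against the 0.5 HAP mean was -0.58 in 3.5 HAP replicate 1 and -0.24 in replicate 2. Without 3.5 HAP replicate 1 the falls numbered 19, with 1 rise, and without 3.5 HAP replicate 2 they numbered 34. Without 0.5 HAP replicate 1 they numbered 17. Both other scalings gave 28 or 29 falls. In 29 of the 30 genes, and in 33 of the 69, both 8 HAP arrays were above both 3.5 HAP arrays, against 5745 of all 13354 named genes. The 0.5 HAP mean was above the unpollinated mean in all 30, and in 57 of the 69, against 5975 of all named genes. The 30 were called on these 3.5 and 0.5 HAP arrays, which favours both of their counts in advance. Summed over the 69 genes the level was 158592 and 172094 at 3.5 HAP, against 206748 and 205205 at 0.5 HAP. The sums were 172339 and 171451 in unpollinated pistils, and 179149 and 186878 at 8 HAP.

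Of 16 measured mitochondrial genes 5 fell and 1, nad2 within background level, rose (median -0.36). Summed over the 16 the level was 3991 and 4738 at 3.5 HAP, against 7912 and 7938 at 0.5 HAP. It was 12797 and 19801 in unpollinated pistils, and 7754 and 7193 at 8 HAP. Unlike in most plastid genes, the 0.5 HAP mean was above the unpollinated mean in only 1 of the 16. orfX, a membrane protein gene of the mitochondrial genome, gave 160 and 273 at 3.5 HAP, against 1130 and 1418 at 0.5 HAP (5.68-fold lower, adjusted p = 0.000169), and it averaged 1476 at 8 HAP. nad4, a subunit of respiratory complex I, gave 1139 and 1382 at 3.5 HAP, against 2376 and 2373 at 0.5 HAP (log2 difference -0.91, adjusted p = 0.0112). ccb382, nad9 and cox1 fell by log2 differences of -0.77, -0.90 and -0.65, and cox1 missed the threshold without any one of the 4 arrays, after centring and with the replicate block. nad4 and nad9 missed it in 3 of the 4 fits that left out 1 array, and ccb382 in 2. From 1 to 3 of the 16 fell without any one array, and without 3.5 HAP replicate 1 it was orfX alone. AT2G07708, AT2G07751 and AT2G07707, which gave falls of 3.48-fold, 3.19-fold and 2-fold, lie on chromosome 2 where the nuclear genome holds a copy of mitochondrial DNA, so their probe sets may read either copy and are uncertain.

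**Figure D5:**
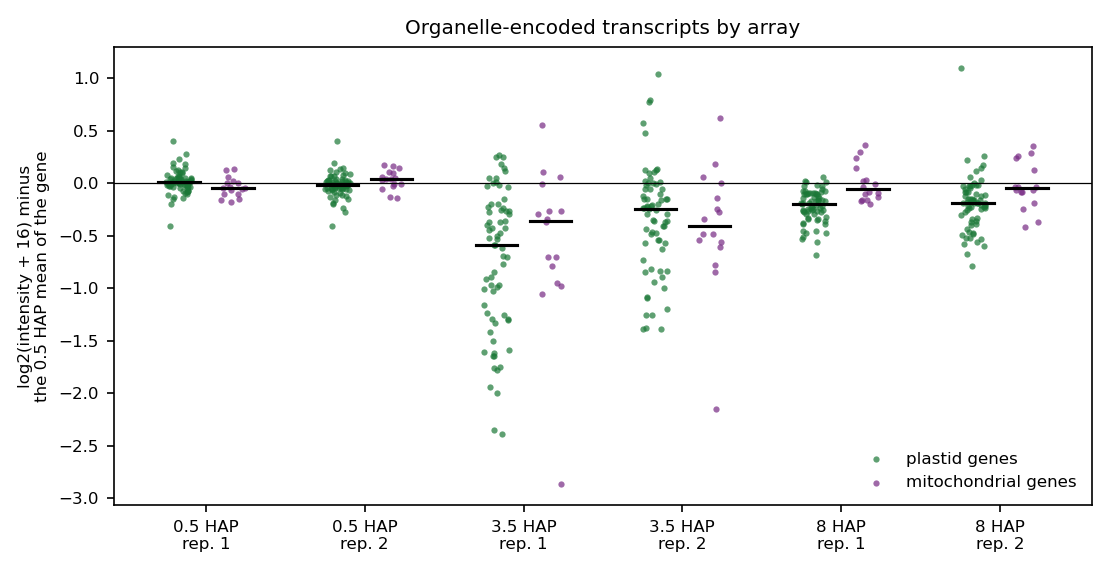
Log2(intensity + 16) of each of 69 plastid genes (green) and 16 mitochondrial genes (purple) on the 2 arrays at 0.5, 3.5 and 8 HAP, less that gene's 0.5 HAP mean. Black bars are medians. The plastid median was -0.58 in 3.5 HAP replicate 1 and -0.24 in replicate 2, and close to -0.19 on both 8 HAP arrays.

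The genes of the interval were then set against 8 HAP pistils and unpollinated pistils, which share no array with it although all groups share 1 estimate of the spread. Of the 66 named genes at least 2-fold higher at 3.5 HAP, 54 (81.8%) were also higher and 3 lower at 8 HAP than in unpollinated pistils. Among all 13354 named genes 17.4% were higher and 18.6% lower in that comparison. In 42 of the 66 the unpollinated mean was at or under background level, and in 56 the ovule mean was. The same held for 7176 and 7977 of the 22745 tested probe sets, in that order. From 3.5 to 8 HAP 33 of the 66 had both 8 HAP arrays above both 3.5 HAP arrays and 23 had both below. Over all 22745 tested probe sets, 9823 had both above and 6754 had both below. The 66 were called on the same 3.5 HAP arrays, which favours a later fall, so the counts over all probe sets are not an even reference. Of the 63 genes at least 2-fold lower 34 were higher and 9 lower at 8 HAP than in unpollinated pistils. These 63 comprised 43 nuclear genes, with 22 higher and 8 lower, 17 organelle genes, with 11 higher, and the 3 uncertain chromosome 2 genes, with 1 higher and 1 lower. Of the 43 nuclear ones 23 had both 8 HAP arrays above both 3.5 HAP arrays and 14 had both below. These too were called on the 3.5 HAP arrays, which for falling genes favours a later rise. Against unpollinated pistils the ovules, where 28.7% of named genes were higher and 19.3% lower, had 7 of the 66 rising genes higher and 31 lower, and 8 of the 63 falling genes higher and 28 lower. No test was made of these shares.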

How the data were processed

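RNA of 10 pools (5 groups, 2 replicates each) was amplified in 2 rounds and hybridised as biotin-labelled cRNA (per the labels' protocols). A table of 22810 probe sets with 1 linear intensity per array was deposited by the authors. MAS5 is the tool named in the submitters' processing notes, where neither its version nor its use is stated, and the scaling method is not given in the sources used here. Probe sets were named through the platform annotation and a RefSeq gene table (TAIR10.1, names only): 13512 tested probe sets named 1 gene, and a gene with several is given by the brightest. The 64 control probe sets and 1 without values were left out.

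log2(intensity + 16) was fitted with limma 3.58.1 (R 4.3.3; lmFit on 5 groups, eBayes with trend, 5 residual and 6.106 prior degrees of freedom), with Benjamini-Hochberg adjustment over 22745 probe sets and a threshold of 0.05. The fit was tested on simulated data. Named were the 20 largest rises and 20 largest falls (called, groups apart, the higher mean above background level) and up to 6 called members with the smallest adjusted p in each of 32 lists; other genes named were chosen after their values were seen. The members and lists were chosen with earlier results of these data known, and the lists were completed after the naming tables were seen. Alternatives changed the pseudocount, scaling, dim filter, groups fitted, variance model, replicate block and each array. The replicate numbers were not taken as pairs, since the labels tie them to nothing shared. Python 3.11.15, pandas 2.3.3 and matplotlib 3.10.9 made tables and figures.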

Additional observations from a re-analysis of the deposited data

How the results depend on the processing

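The total of 3228 changed probe sets (1181 higher, 2047 lower) moved with the arrays entering the fit. It was 6117 (2369 higher, 3748 lower) in a fit of the 6 pollinated pistil arrays and 5895 (2299 higher, 3596 lower) in a fit of the 4 arrays alone. With the unpollinated and ovule arrays left out the pooled spread is smaller, since their replicates differed by an SD of 0.230 and 0.202 on the log2 scale, against 0.151 at 3.5 HAP and 0.125 at 0.5 HAP. Without any one of the 4 arrays the total was 982 to 1412 (438 to 573 higher, 544 to 862 lower), the fewest without 0.5 HAP replicate 1; the lone array left is assumed to vary like the other groups. Centring on the reference genes gave 1225 falls, and quantile normalization 1704; the median log2 difference was -0.03 as deposited and 0.00 after quantile normalization. The other alternatives stayed within 1.5 times the counts, and changes of at least 2-fold did so under every alternative run. With the replicate number as a block 2800 probe sets changed (1047 higher, 1753 lower); replicate differences at 0.5 and 3.5 HAP correlated at 0.105, and the other pairs of groups gave -0.323 to 0.0652. Leaving out unpollinated replicate 2, an alternative chosen after seeing the data because its RNA quality ratio stood apart, gave 4463 (1678 higher, 2785 lower).

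Of 121 named genes 89 were called under every alternative in which they were tested, and 0 reversed; 26 missed the threshold without 0.5 HAP replicate 1, 26 without 0.5 HAP replicate 2, 17 without 3.5 HAP replicate 1, 23 without 3.5 HAP replicate 2, 7 after centring and 4 with the block. Signal over background limits 25 of the 66 named 2-fold rises and 11 of the 63 falls, where 1 mean lay within background level.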

Other observations

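Further genes that changed at least 2-fold lay outside the gene lists and the largest changes, and those named here were chosen after their values were seen. JRG21, an oxidase that inactivates jasmonate, gave 2183 and 2327 at 3.5 HAP, against 905 and 1049 at 0.5 HAP (log2 difference 1.20, adjusted p = 5.74e-05). It moved opposite to OPCL1 of jasmonate synthesis, which fell by 1.30 on the log2 scale. CCR2, a reductase of lignin synthesis, gave 267 and 275 at 3.5 HAP, against 111 and 116 at 0.5 HAP (log2 difference 1.14, adjusted p = 7.78e-05). Its 0.5 HAP arrays were within background level, and its mean at 8 HAP was 146. GSTU16, a glutathione transferase, gave 842 and 868 at 3.5 HAP, against 401 and 425 at 0.5 HAP (log2 difference 1.02, adjusted p = 0.000112). CSLA01, of the family that makes mannan, gave 693 and 634 at 3.5 HAP, against 312 and 309 at 0.5 HAP (log2 difference 1.06, adjusted p = 3.35e-05). In each of these both 3.5 HAP arrays were above both 0.5 HAP arrays.

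Among the falls, AT2G33850 gave 738 and 547 at 3.5 HAP, against 1547 and 1625 at 0.5 HAP (log2 difference -1.30, adjusted p = 5.88e-05), and its means were 2529.9 in unpollinated pistils and 47.2 at 8 HAP. FHL, which brings phytochrome A into the nucleus, gave 174 and 172 at 3.5 HAP, against 456 and 375 at 0.5 HAP (log2 difference -1.19, adjusted p = 0.000264). AT3G25810, a terpene synthase, gave 116 and 252 at 3.5 HAP, against 355 and 383 at 0.5 HAP (log2 difference -1.03, adjusted p = 0.0224), with the 3.5 HAP arrays far from each other. Of the 6 reference genes used for centring AT2G28390 was itself called higher (log2 difference 0.38, adjusted p = 0.0377), a call lost with the replicate block and without any one of the 4 arrays (adjusted p up to 0.216).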
